A study of Drosophila melanogaster with 36 samples.

Results

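The genes described here code for cuticle proteins of the RR family, named after the Rebers and Riddiford sequence that binds chitin. They were chosen as a list of 43 gene identifiers (Cpr, Ccp84A and Edg genes) out of the 14010 genes of the expression table, and each was represented by its transcript with the most reads. All 43 identifiers were in the table and had a symbol in the RefSeq gene list. Of these, 22 averaged at least 5 normalised reads over the 18 columns and are described one by one, and the other 21 are given by count. The mean of Ccp84Ad, just inside that limit, was 6.11 normalised reads, and that of Cpr49Aa, just outside it, was 4.31 normalised reads.

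RNA came from heads of wild-type Drosophila melanogaster (Canton-S), with no mutation or other treatment, after at least 3 days of light-dark cycles at 1 of 3 temperatures, 18°C, 25°C or else 29°C. The study's methods describe crosses raised at 25°C whose young adults stayed there or were moved to 18°C or 29°C. The labels of these samples say only that flies grew at different temperatures, so the temperature at which they developed is not certain. Neither their age at collection nor their sex is given in the sources used here. Heads were collected at 6 zeitgeber times (ZT, hours after lights on), ZT3, ZT7, ZT11, ZT15, ZT19 and ZT23, and the 3′ ends of polyadenylated RNA were sequenced. The labels list 36 libraries, 2 for each temperature and time point, whereas the table holds 18 columns, 1 for each temperature and time point, in which the authors had multiplied the reads of each column by 1 scaling step. The spread between libraries of 1 group is therefore not known, and p-values measure each difference against the spread left between time points, which are not replicates.

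Insect cuticle is a layered composite of chitin fibres and proteins that epidermal cells secrete at their outer face. RR proteins form its largest protein family, many of their genes lie side by side in clusters, and most are used for a limited time around a moult, although young adult flies go on adding inner layers of cuticle. In the head, cuticle covers the capsule and mouthparts and lines the foregut and air tubes, and it also forms the corneal lenses of the compound eye, of which Cpr72Ec and Cpr66D are known components.

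The columns held between 736538 and 2750250 reads on genes, with at least 1 read for 8846 to 10988 genes. All 6 photoreceptor markers were present throughout (summed level between 22997 and 40811 normalised reads), as were the 3 glial markers. The 4 neuronal and the 5 fat body markers were present at each temperature, the fat body set at very high summed levels. Of these, elav had no read at 29°C ZT3 and ZT7, and Fbp1 had none in several 29°C columns. In 2 columns, markers of tissues outside the head stood out. The 6 midgut markers summed to 6608 normalised reads in the 25°C ZT7 column and 1610 in the 29°C ZT19 column, against at most 33.7 in all other columns. Flight muscle markers summed to 4269 in the 25°C ZT7 column and to 763 to 1468 elsewhere, where Mlp60A made up nearly all of the sum. The other flight muscle markers, Act88F, TpnC4 and fln, had 2546, 164 and 607 normalised reads in the 25°C ZT7 column. They had 41.8, 9.3 and 13.9 in the 29°C ZT19 column and at most 13.1 in any remaining column. Testis and accessory gland markers summed to 150 and 160 normalised reads in the 29°C ZT19 column and to at most 4.65 elsewhere. Eggshell markers summed to at most 23.9 normalised reads in any column.

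Among the 22 RR genes above the limit, levels were mostly highest in the cold. The mean was highest at 18°C for 18 of them, at 25°C for 3 and at 29°C only for Cpr72Ec, and 14 had means that were lower at each step from 18°C over 25°C to 29°C. The shares of all genes with these patterns were not counted. All 43 genes together had between 1434 and 2642 normalised reads per column at 18°C (median 2143). They had 1009 to 2201 at 25°C (median 1545) and 1059 to 2891 at 29°C (median 1891), so the total overlapped between all temperatures. Without Cpr72Ec, a choice made after its values were seen, the others together had between 1236 and 2303 normalised reads per column at 18°C (median 1858). They had 822 to 1615 at 25°C (median 1172) and 346 to 802 at 29°C (median 626), and no 29°C column reached the lowest 25°C column. Cpr72Ec moved the other way and made up 12.1% of the reads on the 43 genes at 18°C, 27.1% at 25°C and 64.9% at 29°C. In RNA from whole heads, fewer cells of a type and less RNA per cell cannot be told apart.

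**Figure D1:**
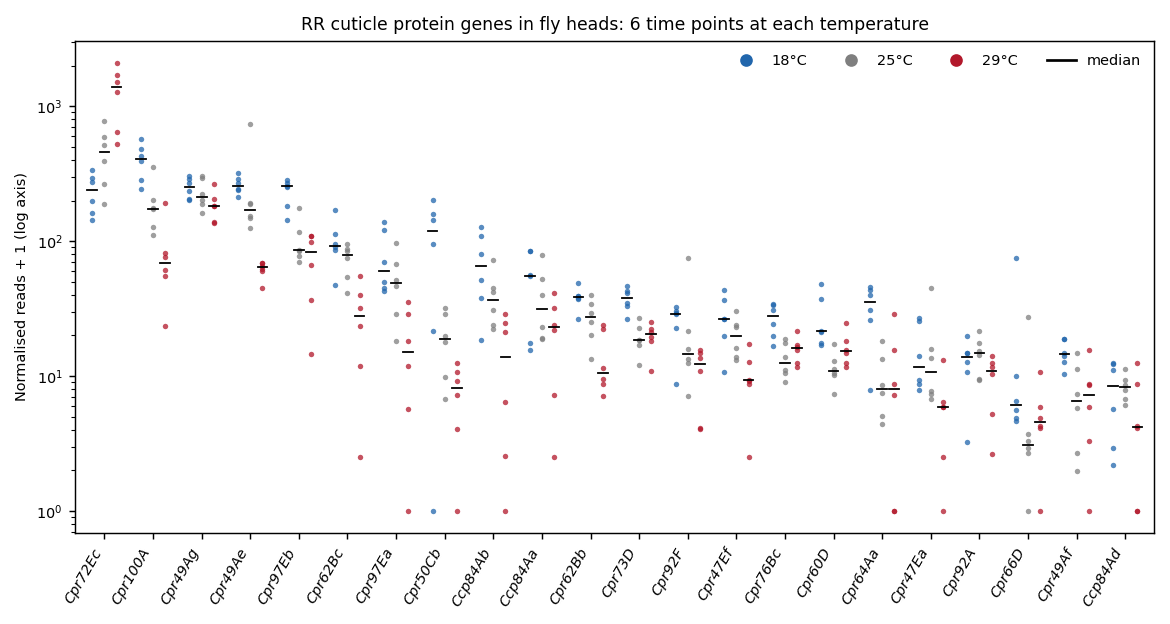
Normalised reads plus 1 on a log axis for the 22 RR genes with a mean of at least 5 normalised reads, with the 3 temperatures from low to high running left to right. Each point is 1 of 6 time points and each black line a median, and a reader should see that Cpr72Ec is highest at 29°C whereas 18 of the 22 genes have their highest mean at 18°C. The share of all genes with their highest mean at 18°C was not counted.

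Differences between temperatures were tested with limma on log2(value + 1) with time point as a second factor, and p-values were adjusted by the Benjamini-Hochberg method over all 8791 genes that passed a filter on low counts. Between 18°C and 29°C, 17 of the 22 genes passed an adjusted p of 0.05, of which 16 were higher at 18°C and Cpr72Ec was lower, while among all genes tested 27.9% passed (13.3% higher and 14.7% lower). The median log2 difference was 1.5 over the 22 genes and -0.06 over all genes. The difference was positive for 21 of the 22 genes (95.5%) and for 46.0% of all genes tested. For 6 genes every 18°C column lay above every 29°C column (Cpr100A, Cpr49Ae, Cpr97Eb, Cpr97Ea, Cpr62Bb and Cpr73D), and for Cpr72Ec every one lay below, against 5.82% and 6.88% of all genes.

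Between 29°C and 25°C, 8 of the 22 genes passed, with Cpr72Ec higher and 7 lower at 29°C, whereas 17.3% of all genes passed (10.6% higher and 6.69% lower). The median log2 difference at 29°C was -0.99 over the 22 genes and 0.04 over all genes. Only Cpr49Ae had every 29°C column below every 25°C column, which held for 2.87% of all genes, and none had every 29°C column above (5.14% of all genes). Without both the 29°C ZT19 and the 25°C ZT7 column, 2 of the 22 passed, Cpr72Ec and Cpr49Ae, and 10.6% of all genes did.

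Between 18°C and 25°C, 6 of the 22 genes passed, with 5 higher (Cpr97Eb, Cpr60D, Cpr100A, Cpr76Bc and Cpr73D) and Cpr72Ec lower at 18°C, whereas 13.4% of all genes passed (8.07% higher and 5.32% lower). The median log2 difference at 18°C was 0.59 over the 22 genes and -0.01 over all genes, and the columns overlapped for each of the 22, whereas 4.12% of all genes were higher and 2.32% lower in every 18°C column. Without both the 25°C ZT7 and the 29°C ZT19 column, Cpr72Ec and Cpr49Ae passed, the second of which had not with all columns, and 9.2% of all genes did. Both comparisons against 25°C use the same 25°C columns, so they are not independent of each other. Scaling to library size instead shifted the median log2 difference of all genes to -0.14 at 18°C and to -0.13 at 29°C, each against 25°C. The split of all genes called was then 449 higher and 855 lower at 18°C (709 and 468 with the authors' scaling) and 491 higher and 1091 lower at 29°C (929 and 588). For the RR genes the split was 5 higher and 1 lower at 18°C under both scalings, and 1 higher and 9 lower at 29°C (1 and 7 with the authors' scaling).

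**Figure D2:**
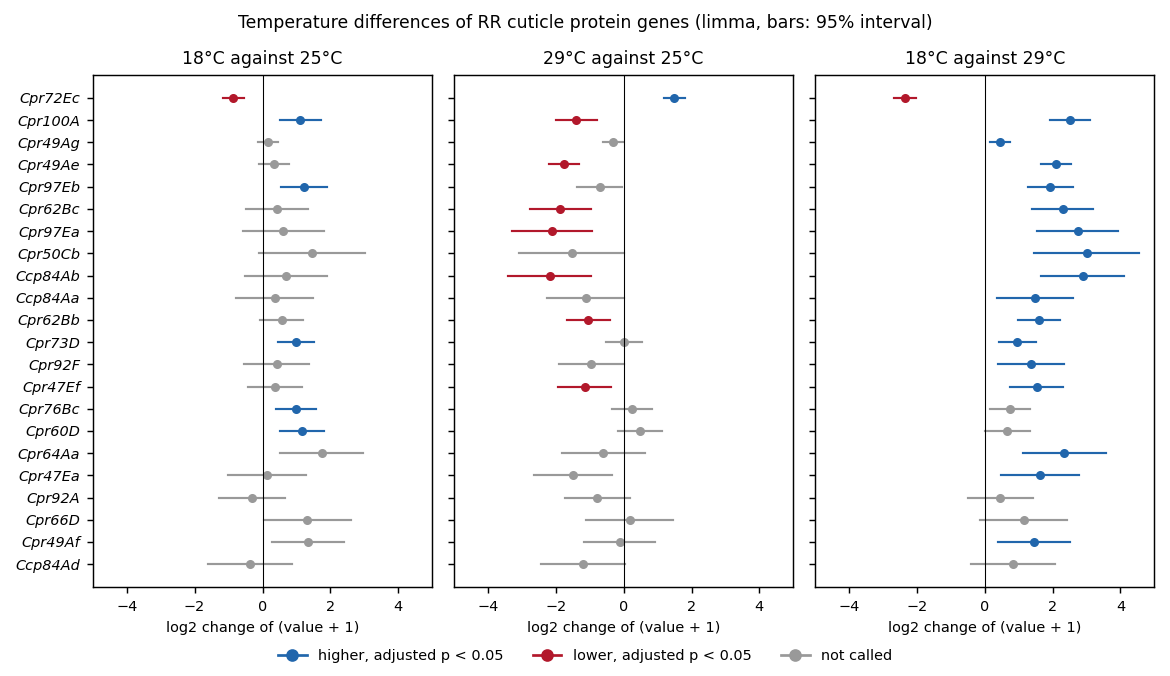
Differences in log2(value + 1) for the 22 RR genes in 3 comparisons, from left to right 18°C against 25°C, 29°C against 25°C, then 18°C against 29°C, with lines for 95% confidence intervals of the limma fit. Blue points are higher and red points lower at an adjusted p under 0.05, and 16 points are blue and 1 is red in the panel of 18°C against 29°C.

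Cpr72Ec (CG4784), the lens component, lies on chromosome 3L between 16358991 and 16360426 in the coordinates of the table, whose build is listed as dm3. At 18°C it had 295, 338, 276, 198, 144 and 161 normalised reads from ZT3 to ZT23, at 25°C 776, 516, 394, 265, 187 and 592, and at 29°C 2090, 1714, 1266, 639, 526 and 1520. At each of the 6 time points its level was lowest at 18°C and highest at 29°C, and the columns of these temperatures did not overlap. The log2 difference was -2.36 ± 0.15 (SE) for 18°C against 29°C (limma, adjusted p = 4.365e-11), 1.49 ± 0.15 for 29°C against 25°C (limma, adjusted p = 2.763e-07) and -0.86 ± 0.15 for 18°C against 25°C (limma, adjusted p = 0.000334). The first 2 of these calls held in all 31 alternative settings, and the third was lost only in the fit with no time point factor (limma, adjusted p = 0.0601, range over the alternatives 5.706e-07 to 0.0601). The photoreceptor markers, whose cells lie beneath the lens, had a median sum of 25688 normalised reads at 18°C (22997 to 27919), 32768 at 25°C (28578 to 37529) and 34903 at 29°C (32905 to 40811). Of these 6 markers, 1 was higher and 4 were lower at 18°C than at 29°C (13.3% and 14.7% of all genes). Their part in the Cpr72Ec difference was not tested.

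Another lens component, Cpr66D (CG32029, chromosome 3L, 8633574 to 8636679), was low in most columns. It had 3.63, 5.09 and 74.6 normalised reads as the lowest, median and highest column at 18°C, 0, 2.10 and 26.6 at 25°C, with 0, 3.58 and 9.80 at 29°C. Its highest values were single columns, ZT3 at 18°C and ZT19 at 25°C, and no comparison between temperatures passed (log2 difference 1.14 ± 0.62 between 18°C and 29°C, limma adjusted p = 0.184). Whether Cpr72Ec and Cpr66D differ in their changes with temperature was not tested.

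Cpr100A (CG12045, chromosome 3R, 26693245 to 26694908) was the gene with the highest mean among those that were higher in the cold. It had 286, 568, 428, 244, 483 and 389 normalised reads from ZT3 to ZT23 at 18°C, 357, 127, 202, 171, 110 and 175 at 25°C, with 191, 54.2, 22.7, 75.1, 59.7 and 80.4 at 29°C. All 18°C columns exceeded all 29°C columns, by 2.51 ± 0.29 on the log2 scale (limma, adjusted p = 3.807e-07). Its 29°C column lay below the 25°C column at all 6 time points (log2 difference -1.40 ± 0.29, limma adjusted p = 0.00116), and its 18°C column above it at 5 of 6 (1.11 ± 0.29, limma adjusted p = 0.0106). The call at 18°C against 25°C was lost without the 25°C ZT7 or the 29°C ZT19 column (limma, adjusted p = 0.0667 and 0.0944 as the lower and the higher of the pair, range over all alternatives 0.000368 to 0.19).

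In the cluster at band 97E, Cpr97Ea (CG6131, chromosome 3R, 22908854 to 22912341) and Cpr97Eb (CG15884, 22915417 to 22916845) lie 3075 bases apart. Cpr97Eb had 143, 254 and 286 normalised reads as the lowest, median and highest of the 6 columns at 18°C, 69.0, 84.5 and 174 at 25°C, with 13.6, 81.5 and 109 at 29°C. Its 18°C columns lay above all 29°C columns and above the 25°C column of the same time at all 6 time points, while 25°C and 29°C overlapped broadly. The log2 difference was 1.94 ± 0.33 for 18°C against 29°C (limma, adjusted p = 6.687e-05) and 1.23 ± 0.33 for 18°C against 25°C (limma, adjusted p = 0.0128). The difference of -0.71 ± 0.33 at 29°C relative to 25°C did not pass (limma, adjusted p = 0.147). Cpr97Ea had 41.5, 58.8 and 138 normalised reads at 18°C, 17.2, 48.2 and 96.7 at 25°C, with 0, 14 and 34.6 at 29°C. In contrast to its neighbour, Cpr97Ea passed at 29°C against 25°C (log2 difference -2.12 ± 0.57, limma adjusted p = 0.0109) and not at 18°C against 25°C (0.62 ± 0.57, limma adjusted p = 0.537). Its log2 difference at 18°C against 29°C was 2.74 ± 0.57 (limma, adjusted p = 0.000743). Whether the neighbours differ in their changes was not tested. The Cpr97Eb call at 18°C against 25°C was lost without the 18°C ZT11, 25°C ZT7, 25°C ZT23 or 29°C ZT19 column (limma adjusted p between 0.0548 and 0.0813), and the Cpr97Ea call at 29°C against 25°C without the 25°C ZT7, 25°C ZT11 or 29°C ZT19 column (limma adjusted p between 0.0589 and 0.0943). With DESeq2 the Cpr97Ea call was lost as well (adjusted p = 0.0565).

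The cluster at band 49A holds 6 listed genes on chromosome 2R between 8264175 and 8302358, of which 3 were above the limit of 5 normalised reads. Cpr49Ae (CG8505, 8289720 to 8292620) had 213, 257 and 320 normalised reads as the lowest, median and highest column at 18°C, 124, 170 and 732 at 25°C, with 43.9, 62.9 and 68.2 at 29°C. All 29°C columns lay below all others, with a log2 difference of -1.75 ± 0.22 against 25°C (limma, adjusted p = 2.576e-06) and of 2.10 ± 0.22 for 18°C against 29°C (limma, adjusted p = 6.375e-08), and both calls held in all 31 alternative settings. The value of 732 was the 25°C ZT7 column, in which the midgut and flight muscle markers were also high and whose part in it was not tested, and the next highest 25°C column had 191 normalised reads. Without that column, Cpr49Ae also passed at 18°C against 25°C (log2 difference 0.69, limma adjusted p = 0.00199), whereas with it the difference of 0.34 ± 0.22 did not pass (limma, adjusted p = 0.323, range over the alternatives 0.00199 to 0.633).

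Its neighbour Cpr49Af (CG8510, 8293510 to 8293948), 889 bases away, had far fewer reads. It had 9.29, 13.4 and 18.0 normalised reads as the lowest, median and highest column at 18°C, 0.959, 5.54 and 13.8 at 25°C, with 0, 6.25 and 14.7 at 29°C, with overlap between all temperatures. The difference between 18°C and 29°C passed narrowly (log2 1.45 ± 0.51, limma adjusted p = 0.0347) and was lost without any 1 of 9 columns, which were ZT3, ZT7, ZT19 and ZT23 at 18°C, ZT7 at 25°C and ZT3, ZT7, ZT11 and ZT19 at 29°C (limma adjusted p between 0.0515 and 0.137). It was also lost with edgeR (adjusted p = 0.121) and DESeq2 (adjusted p = 0.0745). At 18°C against 25°C it passed without the 18°C ZT11 column (limma, adjusted p = 0.0485, against 0.0832 with all columns). Cpr49Ag (CG8511, 8295341 to 8296038), the next gene along, varied little between temperatures. It had 200, 250 and 301 normalised reads at 18°C, 161, 212 and 301 at 25°C, with 136, 181 and 263 at 29°C. Cpr49Ag rose at 18°C relative to 29°C by only 0.46 ± 0.14 on the log2 scale (limma, adjusted p = 0.0183), a call that was lost without the 18°C ZT19, 29°C ZT3, 29°C ZT11 or 29°C ZT19 column (limma adjusted p between 0.0562 and 0.101). The log2 differences between 18°C and 29°C thus ranged from 0.46 to 2.10 over these 3 neighbours.

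At band 62B on chromosome 3L, Cpr62Bb (CG13935, 1832636 to 1835161) and Cpr62Bc (CG1919, 1840278 to 1842080) were both lower at 29°C. Cpr62Bc had 46.2, 91.8 and 171 normalised reads as the lowest, median and highest column at 18°C, 40.3, 78.3 and 94.0 at 25°C, with 1.51, 26.7 and 54.4 at 29°C. The 18°C and 25°C columns overlapped, with the wider spread at 18°C, and the log2 difference at 29°C was -1.87 ± 0.44 against 25°C (limma, adjusted p = 0.00362) and 2.29 ± 0.44 for 18°C against 29°C (limma, adjusted p = 0.000291). Cpr62Bb had 25.3, 37.5 and 48.4 normalised reads at 18°C, 12.5, 26.2 and 39.0 at 25°C, with 6.05, 9.50 and 23.1 at 29°C. Its 18°C columns lay above all 29°C columns (log2 difference 1.60 ± 0.31, limma adjusted p = 0.000279), and its 29°C column lay below the 25°C column at all 6 time points (-1.04 ± 0.31, limma adjusted p = 0.019). The second of these calls was lost without any 1 of 6 columns, which were ZT7, ZT11 and ZT15 at 25°C and ZT7, ZT11 and ZT19 at 29°C (limma adjusted p between 0.0505 and 0.101).

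The Ccp84A cluster with Edg84A on chromosome 3R holds 8 of the listed genes between 2510172 and 2530625, and 3 of them were above the limit. Edg84A, and Edg78E on chromosome 3L, belong to genes first found as ecdysone-dependent and are known from pupal cuticle, and they had 13 and 0 reads in all columns together. Ccp84Ab (CG1252, 2527689 to 2528599) had 17.5, 64.8 and 126 normalised reads as the lowest, median and highest column at 18°C, 21.2, 35.3 and 71.3 at 25°C, with 0, 12.8 and 28.0 at 29°C. At all 6 time points its 29°C column lay below the 25°C column (log2 difference -2.19 ± 0.59, limma adjusted p = 0.0105) and at 5 of 6 its 18°C column lay above the 29°C column (2.88 ± 0.59, limma adjusted p = 0.000567). The call at 29°C against 25°C was lost without the 25°C ZT7 or the 29°C ZT19 column (limma, adjusted p = 0.0888 and 0.111 as the lower and the higher of the pair). It was also lost with edgeR (adjusted p = 0.0545) and DESeq2 (adjusted p = 0.0707) on recovered reads.

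Ccp84Aa (CG2360, 2529804 to 2530625), 1204 bases from Ccp84Ab, varied widely within each temperature. It had 14.6, 54.6 and 84.3 normalised reads at 18°C, 17.7, 30.4 and 78.1 at 25°C, with 1.51, 22.0 and 40.6 at 29°C. The difference between 18°C and 29°C passed narrowly (log2 1.48 ± 0.55, limma adjusted p = 0.0449) and was lost without any 1 of 9 columns, which were ZT7, ZT11, ZT19 and ZT23 at 18°C, ZT3 and ZT7 at 25°C and ZT7, ZT11 and ZT19 at 29°C (limma adjusted p between 0.0502 and 0.198). It was also lost with edgeR (adjusted p = 0.0764) and DESeq2 (adjusted p = 0.0829). Ccp84Ad (CG2341, 2518520 to 2519180) had 1.18, 7.41 and 11.5 normalised reads at 18°C, 5.07, 7.22 and 10.2 at 25°C, with 0, 3.18 and 11.5 at 29°C, and none of its comparisons passed (log2 difference 0.84 ± 0.60 between 18°C and 29°C, limma adjusted p = 0.326). The other 5 genes of the cluster were below the limit, and Ccp84Af had no read.

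At band 47E on chromosome 2R, Cpr47Ef (CG13214, 7154595 to 7158248) had 9.75, 25.4 and 42.7 normalised reads as the lowest, median and highest column at 18°C, 12.2, 18.6 and 29.5 at 25°C, with 1.51, 8.31 and 16.3 at 29°C. It was higher at 18°C than at 29°C (log2 difference 1.52 ± 0.38, limma adjusted p = 0.00378) and lower at 29°C than in the 25°C columns (-1.15 ± 0.38, limma adjusted p = 0.0378). The second call was lost without any 1 of 9 columns, which were ZT3, ZT7, ZT11 and ZT23 at 25°C and ZT3, ZT7, ZT11, ZT19 and ZT23 at 29°C (limma adjusted p between 0.058 and 0.148). It was also lost with edgeR (adjusted p = 0.075) and DESeq2 (adjusted p = 0.0508). Cpr47Ea (CG9079, 7139632 to 7140396) had 6.91, 10.7 and 26.1 normalised reads at 18°C, 5.75, 9.64 and 44.1 at 25°C, with 0, 4.92 and 12.2 at 29°C. As for Cpr49Ae, its highest value was the 25°C ZT7 column. At 29°C against 25°C it passed in fits without the 25°C ZT19, 29°C ZT15 or 29°C ZT23 column (limma, adjusted p between 0.0199 and 0.0489, against 0.067 with all columns). Between 18°C and 29°C its log2 difference of 1.62 ± 0.56 passed (limma, adjusted p = 0.0311) and was lost without any 1 of 7 columns, which were ZT3, ZT7 and ZT19 at 18°C and ZT3, ZT7, ZT11 and ZT19 at 29°C (limma adjusted p between 0.058 and 0.135). The call was lost with edgeR (adjusted p = 0.142) and DESeq2 (adjusted p = 0.0852).

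Some RR genes were higher at 18°C with little difference between 25°C and 29°C. Cpr73D (CG9665, chromosome 3L, 16932202 to 16935823) had 25.3, 37.0 and 45.8 normalised reads as the lowest, median and highest column at 18°C, 11, 17.6 and 25.9 at 25°C, with 9.88, 19.4 and 24.2 at 29°C. Its log2 difference was 0.96 ± 0.26 for 18°C against 29°C (limma, adjusted p = 0.00686) and 0.98 ± 0.26 for 18°C against 25°C (limma, adjusted p = 0.0125), against 0.02 ± 0.26 between 29°C and 25°C, with a 95% interval from -0.52 to 0.56. Cpr76Bc (CG9295, chromosome 3L, 19514367 to 19520374) had 15.7, 26.7 and 33.5 normalised reads at 18°C, 7.95, 11.5 and 17.7 at 25°C, with 10.6, 15.1 and 20.4 at 29°C. Only its difference between 18°C and 25°C passed (log2 0.99 ± 0.29, limma adjusted p = 0.0224). At 18°C against 29°C it was 0.73 ± 0.29, with higher values at 18°C at all 6 time points (limma, adjusted p = 0.059). Without the 18°C ZT19 column the difference between 18°C and 29°C passed (limma, adjusted p = 0.0239), as it did with edgeR (adjusted p = 0.0299).

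Cpr60D (CG30163, chromosome 2R, 20550374 to 20550929) had 16.1, 20.4 and 47.1 normalised reads at 18°C, 6.33, 9.86 and 16.3 at 25°C, with 10.6, 14.3 and 23.8 at 29°C, so its lowest levels were at 25°C. The difference of 1.16 ± 0.32 on the log2 scale between 18°C and 25°C passed (limma, adjusted p = 0.0151), and that of 0.67 ± 0.32 between 18°C and 29°C did not (limma, adjusted p = 0.121), except without the 18°C ZT23 column (limma, adjusted p = 0.0343). The calls at 18°C against 25°C in this trio depended on single columns. That of Cpr73D was lost without the 18°C ZT7 column (limma, adjusted p = 0.0527), that of Cpr60D without the 18°C ZT15, 18°C ZT19 or 25°C ZT19 column (limma adjusted p between 0.051 and 0.0681), and that of Cpr76Bc without the 18°C ZT7, ZT11 or ZT23 or the 25°C ZT7, ZT15 or ZT23 column (limma adjusted p between 0.0509 and 0.0704).

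Cpr50Cb and Cpr64Aa had large differences with a wide spread. Cpr50Cb (CG6305, chromosome 2R, 9682308 to 9692741) had 201, 142, 158, 20.5, 94.3 and 0 normalised reads from ZT3 to ZT23 at 18°C, 30.7, 18.7, 27.6, 17.0, 8.87 and 5.75 at 25°C, with 11.5, 0, 3.02, 8.17, 6.20 and 9.79 at 29°C. At 18°C, 4 columns exceeded all 25°C and 29°C columns, while the ZT23 column had no read. The log2 difference was 3.00 ± 0.75 for 18°C against 29°C (limma, adjusted p = 0.00389). This call was lost in 4 of 31 alternatives, namely with a pseudocount of 0.1, with only the 12 columns of these temperatures, without the ZT19 columns and without both the 29°C ZT19 and the 25°C ZT7 column (limma adjusted p between 0.059 and 0.0873). The difference of 1.46 ± 0.75 relative to 25°C did not pass (limma, adjusted p = 0.219). Without the 18°C ZT23 column, Cpr50Cb passed at 18°C against 25°C (log2 difference 2.53, limma adjusted p = 0.00265). It also passed at 29°C against 25°C without the 18°C ZT23 or the 29°C ZT23 column (limma, adjusted p = 0.0146 and 0.0344 as the lower and the higher of the pair), compared with -1.54 ± 0.75 and a limma adjusted p of 0.178 in the full fit. Cpr64Aa (CG15006, chromosome 3L, 4207836 to 4209186) had 6.82, 34.5 and 44.9 normalised reads as the lowest, median and highest column at 18°C, 3.39, 7.02 and 17.0 at 25°C, with 0, 7.02 and 28.0 at 29°C. Its 18°C column lay above the 25°C column at all 6 time points, with a log2 difference of 1.75 ± 0.59 at the edge of the threshold (limma, adjusted p = 0.0506, range over the alternatives 0.00187 to 0.257). Against 29°C the log2 difference was 2.34 ± 0.59 (limma, adjusted p = 0.00397), a call lost in 3 of 31 alternatives, with only the 12 columns of these temperatures, without the ZT19 columns and without both the 29°C ZT19 and the 25°C ZT7 column (limma adjusted p between 0.0509 and 0.0652). The difference at 18°C against 25°C passed without any 1 of 6 columns, which were ZT3 and ZT15 at 18°C and ZT3, ZT7, ZT11 and ZT15 at 29°C (limma adjusted p between 0.016 and 0.0455).

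On chromosome 3R, Cpr92F (CG5494, 16495293 to 16498538) had 7.80, 28.0 and 31.6 normalised reads as the lowest, median and highest column at 18°C, 6.11, 13.6 and 73.7 at 25°C, with 3.02, 11.2 and 14.7 at 29°C. The highest value again was the 25°C ZT7 column. At 29°C against 25°C it passed in fits without the 29°C ZT15 column (limma, adjusted p = 0.0401, against 0.178 with all columns). The difference between 18°C and 29°C was 1.36 ± 0.47 on the log2 scale (limma, adjusted p = 0.0306) and was lost without any 1 of 8 columns, which were ZT3, ZT11, ZT19 and ZT23 at 18°C and ZT3, ZT7, ZT11 and ZT19 at 29°C (limma adjusted p between 0.0544 and 0.128). The call was lost with edgeR (adjusted p = 0.117) and DESeq2 (adjusted p = 0.0695). Cpr92A (CG6240, 15423224 to 15424671) had 2.24, 12.7 and 18.9 normalised reads at 18°C, 8.29, 13.8 and 20.4 at 25°C, with 1.65, 9.94 and 13.2 at 29°C, and none of its comparisons passed (log2 difference 0.46 ± 0.47 between 18°C and 29°C, 95% interval -0.51 to 1.43, limma adjusted p = 0.507).

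Of the 21 genes under the limit, 5 had no read in any column (Cpr50Ca, Ccp84Af, Cpr64Ab, Cpr31A and Edg78E), and the other 16 had means between 0.463 and 4.31 normalised reads. Together these 16 had 266, 176 and 81 reads from 18°C over 25°C to 29°C, and the mean was highest at 18°C for 9, at 25°C for 5 and at 29°C for 2. Ccp84Ac, Cpr11A and Cpr49Ac had reads at 18°C and 25°C but none at 29°C. Ccp84Ac had 4 reads at 18°C and 8 at 25°C. Cpr11A had 34 reads at 18°C, 6 at 25°C and none at 29°C, where the limit was set at 3 reads over the 10829467 reads of the 6 columns. Set against that limit, its share of reads was 13.4-fold higher at 18°C. Cpr49Ac had 28, 2 and 0 reads, with 16 of the 28 in the 18°C ZT3 column, and was 11-fold higher at 18°C by the same limit. For Ccp84Ac the same fold was 1.58. These genes were picked for having no read at 29°C, so a higher share at 18°C follows in part from the pick. The folds allow for counting error only in the 0 at 29°C. They take the reads at 18°C as exact and leave out the spread between columns. The filter on low counts passed 7 of the 16, some through few columns with reads, so their calls add no support, and Cpr11A, Cpr49Ac and Cpr49Aa passed the limma threshold between 18°C and 29°C. Cpr49Ah had 25.4 normalised reads in the 25°C ZT7 column, its highest value.

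Over the day, Cpr72Ec was the 1 gene of the 22 that passed a test for a 24 h rhythm common to the 3 temperatures (a cosine and a sine in limma, adjusted p = 5.217e-05), with a fitted peak 3.00 times the trough at ZT5.11, and 0.466% of all genes passed. At an unadjusted p under 0.05, 3 of the 22 (Cpr72Ec, Cpr49Ag and Cpr49Ae) and 8.51% of all genes were found. In each temperature Cpr72Ec was lowest at ZT19. Its fitted peak was at ZT7.34 ± 0.41 at 18°C, ZT4.09 ± 1.02 at 25°C and ZT4.66 ± 0.72 at 29°C (SE from the residuals of 6 values), and its fitted ratio of peak to trough was 2.42, 3.45 and 3.94 in the same order, differences that were not tested. Without the 3 ZT19 columns the rhythm did not pass (limma, adjusted p = 0.0961), whereas it passed without any single column.

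JTK, the algorithm the study used for oscillation, was applied here to the 6 columns of 1 temperature, whereas the study ran it on 2 replicates per time point, each scaled to its own maximum. With a maximum over 1.5 times the minimum as a second criterion, it passed none of the RR genes tested (31 at 18°C, 28 at 25°C, 24 at 29°C), against 1.79%, 1.74% and 1.94% of all genes. No RR gene had an unadjusted exact JTK p under 0.05, the lowest being 0.0833, since with 6 values only perfectly ordered ones reach the smallest p of 0.0167 that these 6 columns allow. That floor does not apply to the study's input of 2 replicates. After scaling to library size, Cpr47Ea passed at 25°C (exact JTK p = 0.0167, unadjusted). With the authors' scaling, its ZT7 column stood apart at 25°C, with 44.1 normalised reads against 5.75 to 14.7 in the others. Midgut and flight muscle markers were also high in that column, and their part was not tested.

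**Figure D3:**
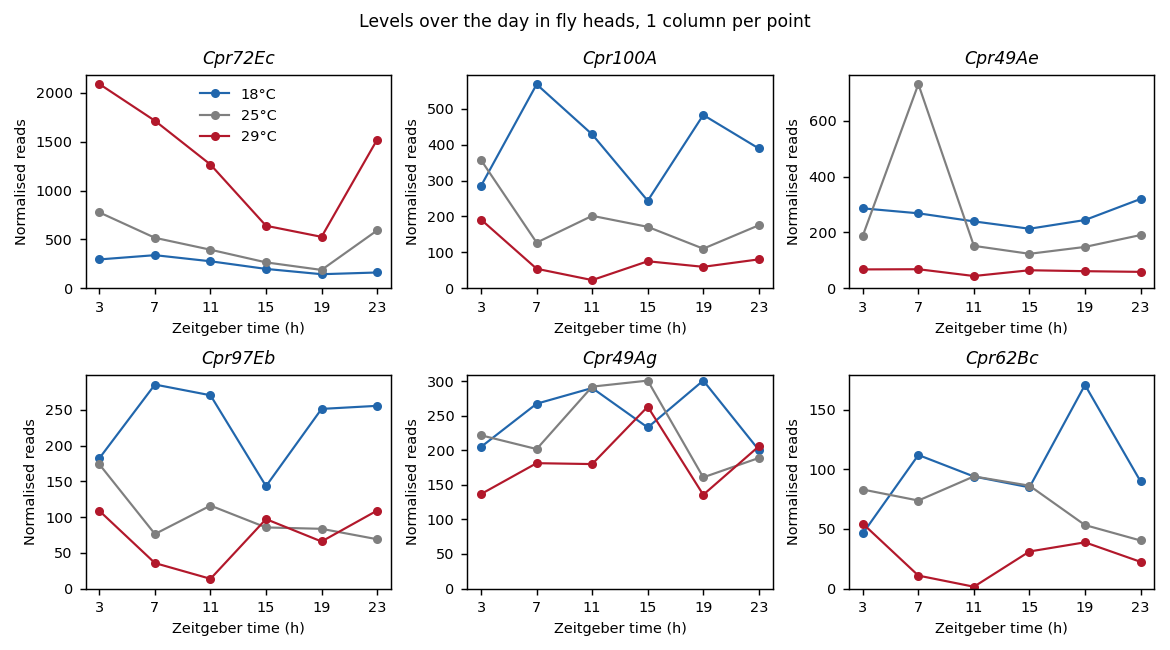
Normalised reads over zeitgeber time for 6 RR genes at 18°C (blue), 25°C (grey) and 29°C (red), 1 column per point, with axes that start at 0. Cpr72Ec is highest at 29°C and lowest at ZT19 in each temperature, Cpr49Ae has a single value of 732 at 25°C ZT7, and Cpr62Bc and Cpr97Eb are lowest at ZT11 at 29°C.

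The spread within a temperature was partly shared between genes. At 29°C, 13 of the 22 genes had their lowest value at ZT11, where the median gene stood at 0.315 of its own 29°C mean and 14 genes were under 0.5 of it, and at ZT7 the median gene stood at 0.55. At ZT15 of the same temperature 18 genes were above their own mean. At 18°C, only 1 of the 22 was above its own mean at ZT15, where the median gene stood at 0.628. Each of these columns is a single profile, so a time of day and a property of 1 column cannot be told apart. The same counts were not made over all genes, so whether RR genes differed from other genes in these columns was not tested.

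Most genes for enzymes and structural proteins of chitin assembly were also higher at 18°C than at 29°C. Of the 16 listed, 13 were tested, and 10 were higher and 1 lower at 18°C than at 29°C, with a median log2 difference of 1.26 (13.3% higher, 14.7% lower and a median of -0.06 over all genes). At 18°C against 25°C, 4 of the 13 were higher and 1 lower (8.07% and 5.32% of all genes). At 29°C against 25°C, 2 were higher and 4 lower (10.6% and 6.69% of all genes). The chitin deacetylase gene serp had medians of 393, 176 and 128 normalised reads from 18°C over 25°C to 29°C (log2 difference 1.61 ± 0.24 between 18°C and 29°C, limma adjusted p = 1.084e-05). Among genes with lower means, the chitin-binding protein gene obst-B had 58.5, 19.9 and 9.51 normalised reads in the same order (3.16 ± 0.43 between 18°C and 29°C, limma adjusted p = 4.598e-06). The chitin synthase gene kkv, which makes the polymer itself, had 18.2, 5.30 and 4.38 normalised reads (1.99 ± 0.63, limma adjusted p = 0.0192). Gfat2, an enzyme that feeds amino sugars into chitin precursors, was the 1 gene lower at 18°C, with 58.4, 78.4 and 143 normalised reads (-1.27 ± 0.14, limma adjusted p = 2.097e-07). Other genes with higher means than obst-B differed less between 18°C and 29°C. The log2 difference was 2.79 ± 0.53 for obst-A (limma, adjusted p = 0.000263), 1.82 ± 0.32 for verm (limma, adjusted p = 0.000112) and 1.21 ± 0.25 for Gasp (limma, adjusted p = 0.0006). The log2 difference was smaller for obst-E, 0.49 ± 0.14 (limma, adjusted p = 0.00997), and for Gfat1, 0.56 ± 0.20 (limma, adjusted p = 0.0403). That of mmy, 0.12 ± 0.16, did not pass (limma, adjusted p = 0.639).

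**Figure D4:**
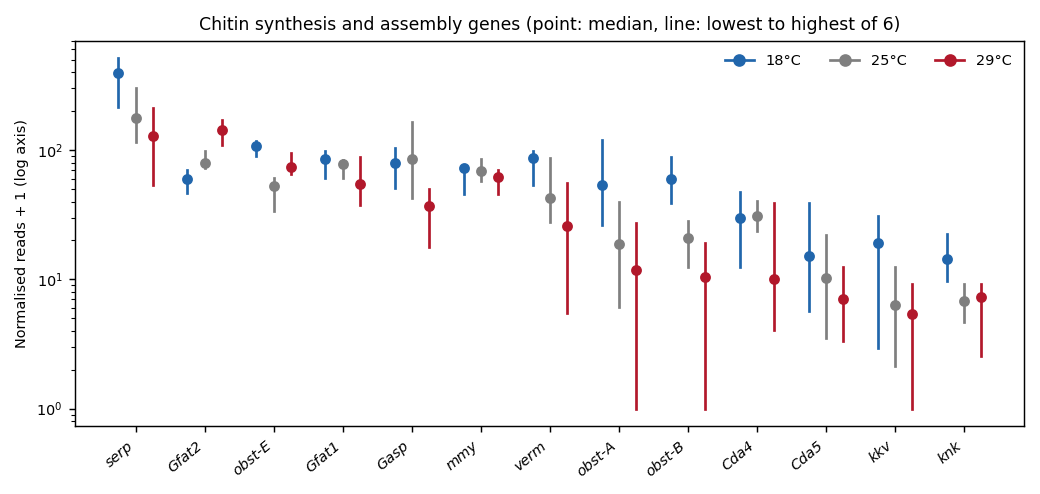
Normalised reads plus 1 on a log axis for the 13 chitin synthesis and assembly genes with a mean of at least 5 normalised reads, with the 3 temperatures from low to high running left to right. Points are medians and lines run from the lowest to the highest of 6 columns, and Gfat2 is the gene whose median is higher at each warmer temperature.

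Of 55 other genes with symbols of the family, 14 were tested. Of these, 7 were higher and none lower at 18°C than at 29°C (13.3% and 14.7% of all genes). The median log2 difference was 0.67 over the 14 genes and -0.06 over all genes. The most abundant, Acp1, an adult cuticle protein gene, had medians of 2458, 1570 and 977 normalised reads from 18°C over 25°C to 29°C (log2 difference 1.81 ± 0.32 between 18°C and 29°C, limma adjusted p = 9.46e-05). Cpr65Au had medians of 666, 672 and 575 normalised reads in the same order (0.18 ± 0.10 between 18°C and 29°C, limma adjusted p = 0.203). Of the 25 genes of the Tweedle family, cuticle proteins of another kind, 3 were tested, and TwdlE was lower at 18°C than at 29°C, with medians of 49.2 and 127 normalised reads (log2 difference -1.44 ± 0.19, limma adjusted p = 3.767e-06).

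Markers of other cells moved with temperature as well. The 3 glial markers summed to 612 to 721 normalised reads at 18°C (median 683), 483 to 626 at 25°C (median 534) and 288 to 359 at 29°C (median 325). All 3 were higher at 18°C than at 29°C, as were 13.3% of all genes. Of the 5 fat body markers, 4 were higher at 18°C than at 29°C (13.3% of all genes). The 5 summed to 161698 to 247333 normalised reads at 18°C (median 227110), 114931 to 269121 at 25°C (median 143826) and 107625 to 182317 at 29°C (median 152460). Nearly all of each sum came from the yolk protein genes Yp1, Yp2 and Yp3. At 18°C ZT3, for example, these had 64844, 91176 and 66441 normalised reads, against 2601 for apolpp and 10.7 for Fbp1. The sex of the flies, which is not given, could not be taken into account. None of the 4 neuronal markers passed between 18°C and 29°C, with sums of 86.7 to 175 normalised reads at 18°C, 106 to 242 at 25°C and 65.7 to 204 at 29°C. The part of these cell types in the differences of the RR genes was not tested.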

How the data were processed

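Heads of Canton-S flies at 3 temperatures and 6 time points were profiled by 3′ RNA-seq. The authors deposited 1 table in which each of 21081 transcripts has a normalised signal in 18 columns. All signal values in the deposited table were whole reads times 1 step per column (100% within 0.001 of a read), so reads were recovered by dividing by that step. The submitters' processing notes list Bowtie2, TopHat, Cufflinks and the build dm3 without roles. How the 2 labelled libraries became 1 column, and whether strand or molecular identifiers were used, is not given in the sources used here. The labels' zt18 was taken as the table's ZT19. The table's 0-based starts were written from 1. No RR gene above the limit overlapped another gene of the table.

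Transcripts were reduced to 14010 genes (most reads per gene). Genes passing filterByExpr (edgeR 4.0.16) were fitted with limma 3.58.1 in R 4.3.3 on log2(value + 1), a scale that understates changes of low genes, on factors for temperature and for time of day, using all 18 columns. No sample was dropped or imputed. JTK was computed exactly in Python 3.11.15 on the 6 columns of a temperature, not on the 2 replicates that the study used. The fits and JTK were tested on simulated data. Alternatives were pseudocounts, scalings, filters, edgeR and DESeq2 1.42.0 on recovered reads, columns left out and other covariates.

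The members, gene lists and tests were chosen with earlier results of these data known. Every listed gene with a mean of at least 5 normalised reads was described, and genes of other lists were given as counts with examples. From the other RR genes, Cpr, which codes for cytochrome P450 reductase, was removed by name. Symbols came from RefSeq Release 6, used for names only, and no sequence is shown.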

Additional observations from a re-analysis of the deposited data

Results flagged for a closer look

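The 22 RR genes were checked at each temperature for a highest or lowest column that stood apart. A column did so if its gap to the next, relative to the range of the 6 columns, exceeded Dixon's critical value. In 7 of 66 groups this held, each time for the highest column. Independent and normally distributed values would give about 1 in 20, or 3.3 groups. The values were unlogged normalised reads from different times of day, so 3.3 is not a firm expectation here. In the 25°C ZT7 column, Cpr49Ae had 732 normalised reads (124 to 191 in the other 25°C columns), Cpr92F had 73.7 (6.11 to 20.4) and Cpr47Ea had 44.1 (5.75 to 14.7). Midgut and flight muscle markers were high in that column too, and their part was not tested. Cpr66D stood apart at 18°C ZT3 with 74.6 normalised reads (3.63 to 8.98 in the other 18°C columns) and at 25°C ZT19 with 26.6 (0 to 2.71 in the other 25°C columns). Cpr100A was highest at ZT3 both at 25°C, with 357 normalised reads (110 to 202 otherwise), and at 29°C, with 191 (22.7 to 80.4 otherwise).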

How the results depend on the processing

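No paired analysis was possible because the columns carry no replicate numbers, although columns of the same time point were matched by the time point factor of the limma fits. Without that factor, 5, 8 and 21 RR genes were called in the 3 comparisons (12.7%, 16.7% and 27.4% of all genes). Of the 29 RR genes tested, 6 were called at 18°C against 25°C, 8 at 29°C against 25°C and 20 at 18°C against 29°C. Among all genes, 13.4%, 17.3% and 27.9% were called in the same order. The 20 include Cpr11A, Cpr49Ac and Cpr49Aa from under the limit, whose calls add no support, beside 17 of the 22 genes described. The count of 20 stayed within 1.5 times in all alternatives run (14 to 21, against 18% to 29.9% of all genes). At 18°C against 25°C the count was 3 without the ZT19 columns and 2 without both the 29°C ZT19 and the 25°C ZT7 column. The share of all genes called was 7.77% and 9.2% in these fits. At 29°C against 25°C the RR count was 5 with DESeq2, 4 without the ZT19 columns and 2 without both of those columns (16.7%, 13.6% and 10.6% of all genes). The edgeR test on recovered reads called 8, 6 and 17 RR genes in the 3 comparisons (1172, 1566 and 2296 of all genes). Leaving out 1 column gave 4 to 8, 4 to 10 and 14 to 20 genes in the 3 comparisons, and at 29°C against 25°C 4 without the 25°C ZT7 or the 29°C ZT19 column and 5 without the 25°C ZT11 column. The share of all genes called then ranged from 10.1% to 13.7%, from 13.7% to 18.5% and from 23.1% to 27.9%. The shared rhythm was called for 1 gene, also without any 1 column, and for 0 without the ZT19 columns (3 at an unadjusted p under 0.05). Among all genes, 0.466% were called with all columns and 0.148% without the ZT19 columns. JTK passed 1 gene at 25°C with library size scaling and 0 otherwise. Among the 22 genes described, 10 of 17 calls at 18°C against 29°C, 2 of 8 at 29°C against 25°C and 0 of 6 at 18°C against 25°C held in all alternatives run, and no call changed sign. The uncalled log2 difference of Cpr64Aa at 29°C against 25°C, -0.60, was 0.14 with edgeR and 0.0195 with DESeq2.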

Other observations

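Of 11 chitinase and chitinase-like genes tested, 1 was higher and 5 were lower at 18°C than at 29°C, whereas 13.3% of all genes were higher and 14.7% lower. Cht5, a chitinase that degrades old cuticle, had medians of 33.6 normalised reads at 18°C and 2.32 at 29°C (log2 difference 3.42 ± 0.57 for 18°C against 29°C, limma adjusted p = 6.113e-05). The chitinase-like growth factor genes Idgf4, Idgf6, Idgf2 and Idgf5 were lower at 18°C than at 29°C, for example Idgf6 with medians of 994 and 1606 normalised reads (-0.69 ± 0.10, limma adjusted p = 5.977e-06).

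Of 10 tanning genes tested, 3 were higher and none lower at 18°C than at 29°C, against 13.3% and 14.7% of all genes. In either direction, 27.9% of all genes passed. Pu, which codes for GTP cyclohydrolase, had medians of 339, 298 and 103 normalised reads from 18°C over 25°C to 29°C (1.61 ± 0.15 for 18°C against 29°C, limma adjusted p = 9.56e-09). Of 10 genes of the ecdysone response and of cuticle timing, none passed between 18°C and 29°C in limma, against 27.9% of all genes. EcR, the ecdysone receptor gene, had medians of 14.7 and 18.2 normalised reads (-0.36 ± 0.32, limma adjusted p = 0.439). At 18°C against 25°C 1 of them, Eip75B, was lower (-0.79, limma adjusted p = 0.0423).

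Other known corneal lens genes were looked up after the values of Cpr72Ec were seen. Crys had medians of 240 normalised reads at 18°C, 60.9 in the 25°C columns and 29.1 at 29°C (3.12 ± 0.33 for 18°C against 29°C, limma adjusted p = 9.775e-08). For retinin the medians were 16386, 20370 and 19274 normalised reads in the same order (-0.25 ± 0.11 for 18°C against 29°C, limma adjusted p = 0.0999).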
